A study of Mus musculus with 6 samples.

Results

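Peritoneal macrophages of a C/EBPβ knock-in labelled LAP were compared with those of a C/EBPβ knockout after the same stimulus. The comparison rests on 2 of the 6 arrays of a mouse series: stimulated cells of the line labelled NF-IL6 KI(LAP) (KI), and stimulated cells of the NF-IL6 knockout (KO). NF-IL6 is C/EBPβ, encoded by Cebpb. Both were peritoneal exudate cells, also labelled peritoneal macrophages, from mice with the strain label C57BL/6, and both received lipopolysaccharide (LPS) with interferon-γ for 12 h. Beside them stand untreated KI and untreated KO cells, and wild-type cells (WT) that were stimulated, with no time given, or untreated. The construct of either allele, the sex and age of the mice, the way the exudate was raised, and whether an array holds 1 animal or a pool were not stated. Each genotype and state had 1 array, so no difference below has a replicate error or a test, and sizes alone are given. The arrays are single-colour Affymetrix arrays, and all 12422 probe sets other than the 66 Affymetrix controls entered. They name 8251 genes, each represented by 1 probe set, of which 5796 were above a floor signal of 98.2 on at least 1 of the 2 stimulated arrays and are called counted genes. The signal is a linear intensity, and a signal under the floor enters a fold change at the floor, as "at least".

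C/EBPβ is a leucine-zipper transcription factor that macrophages raise on contact with bacterial products, and it acts on promoters of cytokines, acute-phase proteins and enzymes of arginine and prostaglandin metabolism. Its mRNA gives long, activating forms known as LAP and a short form, LIP, that lacks the activation domain and can oppose the long ones. LPS signals through TLR4 to NF-κB and to interferon regulatory factors, and together with interferon-γ it drives macrophages to make nitric oxide, interleukin 12 and interferon-inducible proteins.

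The stimulated arrays were similar over most genes. Of the 5796 counted genes, 95 (1.64%) were at least 2-fold higher in KI than in KO and 180 (3.11%) at least 2-fold lower, which left 4.74% apart in either direction. The KO signal was under the floor for 24 of the 95, and the KI signal for 60 of the 180. Over all 7746 counted probe sets the shares were 1.78% higher, 3.32% lower and 5.1% in either direction. At 3-fold the counts were 17 and 21, at 4-fold 8 and 7, and at 8-fold 2 and 1. The median log2 difference, KI minus KO, over all counted genes was -0.06. Centring each array on its own median moved it to 0.13 and turned the split of genes at least 2-fold apart from 34.5% higher to 60.5% higher, with 185 genes higher and 121 lower. Quantile normalization gave 126 higher and 127 lower. Gene groups are therefore set below against the median of all genes. Counts of group members at least 2-fold apart are to be read beside the 1.64% higher and 3.11% lower of all counted genes. The share of genes at least 2-fold apart was 2.07% where the higher signal was at most 214, 9.52% between 214 and 452, 4.21% between 452 and 1115, and 3.17% at 1116 or more. From the lowest to the highest of these signal ranges, the median log2 difference was -0.11, -0.19, -0.05 and 0.05. The distance of a list from the median of all genes was not adjusted for signal. Median signals were 131 on the KI array and 151 on the KO array, and 55.7% and 59.0% of probe sets were above the floor. The ratio of the 3′ to the 5′ actin control was 1.08 in KI and 1.01 in KO, and that of Gapdh 0.842 and 0.866. No pair of arrays held identical values. The number of arrays limits the precision of every value here.

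**Figure D1:**
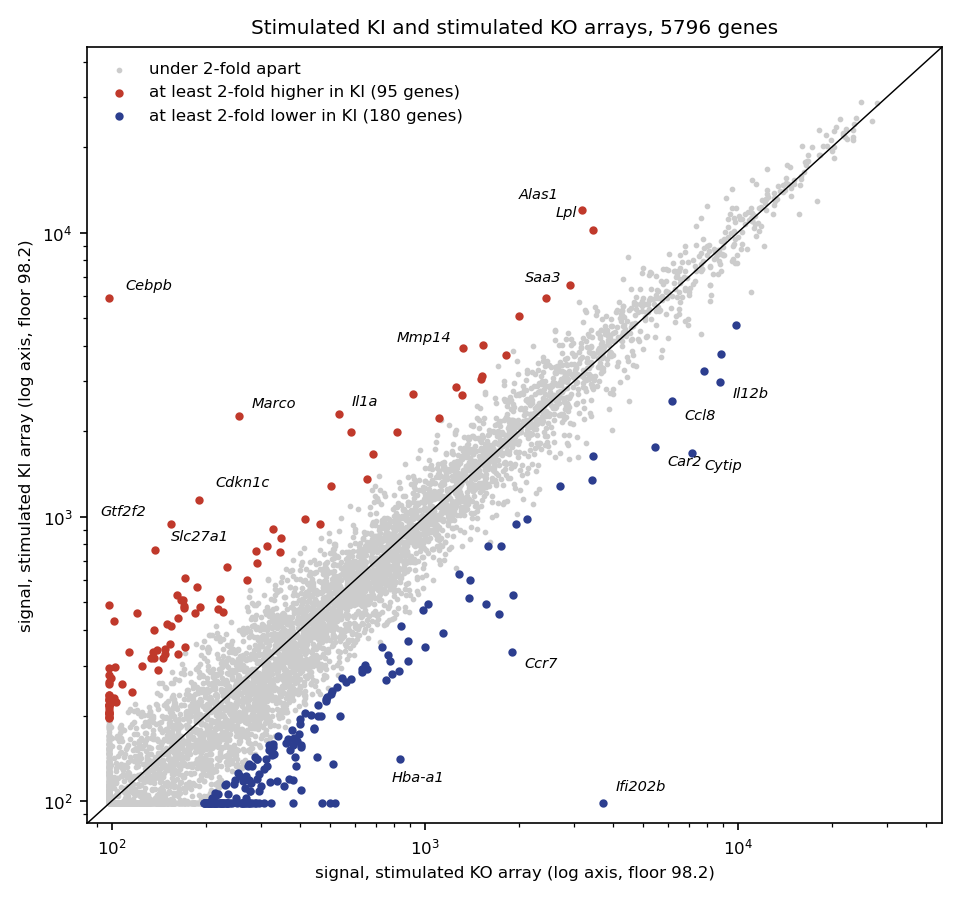
Signal on the stimulated KI array (vertical log axis) against the stimulated KO array (horizontal log axis) for 5796 counted genes, 1 point a gene, with signals under 98.2 drawn at that floor and the diagonal marking equal signals. The 95 red genes are at least 2-fold higher in KI and the 180 blue genes at least 2-fold lower, with Cebpb and Ifi202b farthest from the diagonal.

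Different probe sets of 1 gene gave the only internal check on a difference between single arrays. A further probe set above the floor on at least 1 of both arrays was available for 985 genes. Of these, 43 were at least 2-fold apart by the probe set that represents them. In 27 of the 43 the other probe sets had a median in the same direction. That median was at least 2-fold apart for 4 of the 43, and for 1 of these 4 it ran the opposite way. The differences of chosen and other probe sets had a Pearson's r of 0.23 across the 985 genes. Where the higher signals of both probe sets reached 532, the 75th percentile of all signals, 8 of 9 genes kept their direction and r was 0.44 over 265 genes. This second count was added after the values were seen. Cytip was 2-fold apart by both probe sets (-2.09 and -2.17). Of other named genes at least 2-fold apart, Asl, Cryl1, Slpi, Tpsb2 and Actb had a second probe set that differed in the opposite direction, by 0.10, 0.51, -0.03, 0.55 and 0.24 on the log2 scale. In the same direction but under 2-fold were the second probe sets of Lpl (0.78), Pcp2 (0.36), Glb1 (0.10), Ms4a1 (-0.52), Phf7 (-0.27) and Sf3b1 (-0.32), and the median of 2 for Bcl2l11 (-0.49). The other named genes at least 2-fold apart rest on 1 probe set above the floor. Probe sets of 1 array share its RNA and are not replicates.

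The targeted gene checked the knockout label, and not which form of Cebpb the KI cells carried. Cebpb had a signal of 5890.3 on the KI array and 59.0 on the KO array, under the floor, against 9329 in stimulated WT cells. KI was at least 5.91 higher than KO on the log2 scale. In untreated cells the signals were 2284 in KI and 12.7 in KO cells. Whether the Cebpb probes lie inside the part that was altered was not stated, so these signals bear on transcript and not on protein. The other C/EBP factors were closer. Cebpa, which maintains the myeloid programme, had 3169 on the KI array and 2255 on the KO array (log2 difference 0.49), and Cebpd, an inducible relative, 784 in KI and 816 in KO (-0.06). Ddit3, the stress-induced member that dimerises with other C/EBP proteins, was 2.86-fold higher in KI (667 in KI and 233 in KO, with 274 in WT). Of 6 counted C/EBP factors and partners, 2 were at least 2-fold higher in KI, the targeted Cebpb among them, and 0 lower. Among all counted genes 1.64% were higher.

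Outside Cebpb, the largest excess in KI belonged to a receptor for bacteria. Marco, a scavenger receptor of macrophages, had 2266 in KI, 256 in KO and 2055 in WT cells, so that it was 8.86-fold higher in KI than in KO and KI lay beside WT. In untreated cells it was under the floor on both arrays (21.1 in KI and 12.1 in KO cells). Cd36, a scavenger receptor that also takes up fatty acids, had 458 in KI, 121 in KO and 198 in WT cells and was 3.80-fold higher in KI, as it also was in untreated cells (log2 difference 1.63). Clec4e, a receptor for mycobacterial glycolipid, had 484 in KI, 191 in KO and 1886 in WT cells (2.53-fold higher in KI). Stab1, an endocytic scavenger receptor, ran the other way and was 2.10-fold lower in KI, at 118 in KI and 249 in KO. Over the list of pattern-recognition and scavenger receptors, 3 of 13 counted members were higher, 1 was lower and the median was -0.02, close to the median of all genes. Among all counted genes 1.64% were higher and 3.11% lower. Cd14, the LPS co-receptor, had 2642 in KI and 2845 in KO, against 7915 in WT cells.

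Interleukin 1α differed where interleukin 1β did not reach 2-fold. Il1a had 2302 in KI, 532 in KO and 3956 in WT cells, which was 4.33-fold higher in KI than in KO. Il1b had 2397 in KI, 3870 in KO and 7088 in WT cells, a log2 difference of -0.69. In untreated cells Il1a was also higher in KI, at 338 in untreated KI and 115 in untreated KO. Of 11 counted genes of the interleukin 1 family and inflammatory caspases, Il1a alone was at least 2-fold apart. The share higher among all counted genes was 1.64%.

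In the interleukin 6, 10 and 12 axis, 2 of 13 counted members were at least 2-fold lower in KI and 0 higher. Among all counted genes 3.11% were lower and 1.64% higher. The median log2 difference of the 13 members was -0.35, against -0.06 for all genes, and it stayed below that of all genes under each alternative. Il12b, the shared p40 subunit of interleukins 12 and 23, had 2989 in KI, 8779 in KO and 4066 in WT cells and was 2.94-fold lower in KI. It was under the floor in untreated cells on both arrays. Il6ra, the interleukin 6 receptor, was 2.18-fold lower (123 in KI and 269 in KO). Il6 itself had 659.5 in KI, 1257 in KO and 1908 in WT cells (-0.93 on the log2 scale, KI minus KO), so that both altered genotypes were below WT. Tnf was 14224 in KI, 9610.2 in KO and 13549 in WT cells (0.57). None of 13 counted TNF family genes and none of 10 colony-stimulating factors and receptors was 2-fold apart, and Csf3, the granulocyte growth factor, had 307 in KI and 228 in KO, against 508 in WT.

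Among matrix proteases and secreted defence proteins, Mmp14, Mmp9, Saa3 and Slpi were higher in KI, and Mmp11 and Chil3 lower. Mmp14, a membrane-anchored metalloproteinase, had 3927 in KI, 1325 in KO and 4096 in WT cells (2.96-fold higher in KI), and 897 in KI and 788 in KO cells before stimulation. Mmp9, a gelatinase, had 509.6 in KI, 169 in KO and 259 in WT cells (3.01-fold higher), after a larger untreated difference (1922 in KI and 138 in KO cells). Mmp11, stromelysin 3, was at least 2.16-fold lower in KI (64.4 in KI and 212 in KO), and the protease and inhibitor list had 2 higher and 1 lower of 9. Saa3, an acute-phase apolipoprotein made by macrophages, had 5879 in KI, 2443 in KO and 27343 in WT cells: it was 2.41-fold higher in KI than in KO while both were far below WT. Slpi, an inhibitor of leukocyte proteases, had 906 in KI, 328 in KO and 4592 in WT cells (2.76-fold higher), although its second bright probe set differed by -0.03. Chil3, a chitinase-like protein of alternatively activated macrophages, was 3.08-fold lower (120 in KI and 369.5 in KO), and Lcn2, a siderophore-binding protein, had 221 in KI and 412 in KO (-0.89). The 8 counted acute-phase and defence genes thus held 2 higher, 1 lower and a median of -0.33. Beside both lists, 1.64% of all counted genes were higher and 3.11% lower.

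Proximal promoters of genes on both sides were examined for letters that C/EBP factors are known to favour. The sequences are RefSeq's, on GRCm38.p6, and cover 250 bases before to 50 after the start of each gene. They were given for 79 of the 95 higher genes, 134 of the 180 lower genes and 4681 of all counted genes. TTGCNNAA, read on both strands, was present for 13 of 79 higher genes (16.5%), 9 of 134 lower genes (6.72%) and 494 of 4681 counted genes (10.6%), and in 10.8% of all 32851 promoters. The looser TTNNGNAA, which includes every TTGCNNAA on one strand or the other, was present for 39.2%, 39.6% and 36.6%, and in 40.7% of all promoters. An interferon response element motif was present for 2.53%, 5.22% and 3.78%, and in 3.44% of all promoters. The windows shown next are from named genes at least 2-fold apart with a TTGCNNAA match before the start, on either strand. The match is in capitals, with up to 20 bases on each side, in the direction of the gene. Windows were not drawn for named genes under 2-fold apart, whether or not they hold a match. Saa3, Clec4e, Slpi, Lmo4 and Ptpn1 were higher in KI, and Cytip, Cflar and Gstt1 lower.
Saa3 (chr7:46715748-46715795, minus strand): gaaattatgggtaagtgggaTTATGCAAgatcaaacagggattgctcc
Clec4e (chr6:123289910-123289957, minus strand): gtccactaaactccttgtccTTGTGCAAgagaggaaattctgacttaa
Slpi (chr2:164356721-164356757, minus strand): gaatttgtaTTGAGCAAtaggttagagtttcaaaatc
Lmo4 (chr3:144202605-144202646, minus strand): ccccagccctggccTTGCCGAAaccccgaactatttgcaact
Ptpn1 (chr2:167932124-167932171, plus strand): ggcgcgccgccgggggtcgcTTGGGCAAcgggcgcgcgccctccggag
Cytip (chr2:58160178-58160225, minus strand): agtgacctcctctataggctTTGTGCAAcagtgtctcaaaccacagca
Cflar (chr1:58711411-58711458, plus strand): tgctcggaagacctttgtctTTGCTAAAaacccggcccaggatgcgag
Gstt1 (chr10:75797743-75797790, minus strand): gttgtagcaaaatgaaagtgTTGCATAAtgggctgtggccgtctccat
The match starts 99 bases before the start of Saa3, 66 before Clec4e, 241 before Slpi, 236 before Lmo4, 183 before Ptpn1, 83 before Cytip, 60 before Cflar and 39 before Gstt1. The promoters of Marco, Il1a, Mmp14 and Il12b held no TTGCNNAA in the 250 bases before the start. A match describes letters in this window and was not tested for binding.

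In arginine metabolism and eicosanoid synthesis, pathways in which C/EBPβ is known to act, Ptges, Slc7a2, Nos2 and Ptgs2 were under 2-fold apart between KI and KO, and Arg1, Asl and Ltc4s were lower in KI. Ptges, the inducible prostaglandin E synthase, had 289.7 in KI, 242 in KO and 2525 in WT cells, and Slc7a2, the arginine transporter, 985 in KI, 807 in KO and 4156 in WT cells. Ptges was 1.20-fold higher and Slc7a2 1.22-fold higher in KI than in KO. Nos2, the inducible nitric oxide synthase, had 2579 in KI, 1888 in KO and 2766 in WT cells, and Ptgs2, the inducible cyclooxygenase, 4747 in KI, 6938 in KO and 5975 in WT cells. Arg1, the arginine-degrading enzyme, was 2.93-fold lower in KI (132 in KI and 389 in KO, with 3320 in WT), a smaller gap than in untreated cells (194 in KI and 3674 in KO cells). Asl, which releases arginine from argininosuccinate, was at least 2.20-fold lower (75.5 in KI and 216 in KO), and Ltc4s, the leukotriene C4 synthase, at least 2.27-fold lower (94.5 in KI and 223 in KO). The second probe set of Asl differed by 0.10 on the log2 scale, the other way, and the mean over its probe sets was -0.52. The arginine list had 0 higher and 2 lower of 12, and the prostaglandin and leukotriene list 0 higher and 1 lower of 12, where 3.11% of all counted genes were lower.

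**Figure D2:**
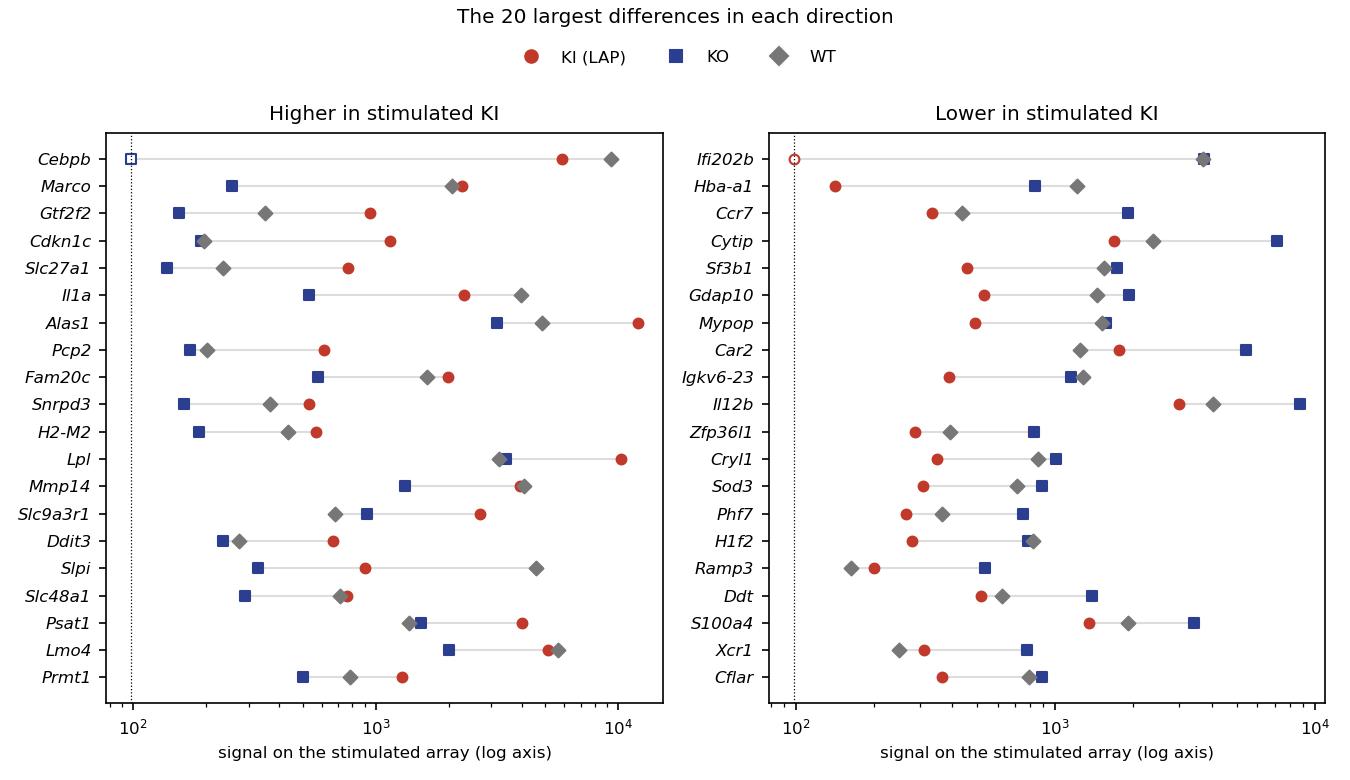
Signals on the stimulated KI, KO and WT arrays (log axis) for the 20 largest differences between KI and KO in each direction, among genes whose higher signal reached 532. Each symbol is 1 array, open symbols are signals under the floor of 98.2, drawn on it (dotted line), and the WT symbol lies beside KI for Marco, Mmp14 and Lmo4 but beside KO for Cdkn1c, Lpl, Psat1, Ifi202b and Sf3b1.

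A second group of genes higher in KI had WT signals near those of KO. Cdkn1c, an inhibitor of cyclin-dependent kinases, had 1150.4 in KI, 190.2 in KO and 195 in WT cells (6.05-fold higher in KI), and 3363 in untreated KI and 172 in untreated KO. Lpl, the lipoprotein lipase, had 10233 in KI, 3445 in KO and 3238 in WT cells (2.97-fold higher), and its second bright probe set differed by 0.78 on the log2 scale. Psat1, an enzyme of serine synthesis, had 4028 in KI, 1539 in KO and 1367 in WT cells (2.62-fold higher). Slc9a3r1, a scaffold protein of membrane transporters, had 2699 in KI, 917 in KO and 682 in WT cells (2.94-fold higher). All 4 were also at least 2-fold higher in untreated KI than in untreated KO cells. Over the 95 genes higher in KI, the WT signal lay nearer to KI for 49 and nearer to KO for 46 on the log2 scale, and over the 180 lower genes nearer to KI for 75 and nearer to KO for 105.

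The haem genes Alas1, Slc48a1 and Blvra were higher in KI, and lipid and redox genes were found on both sides. Alas1, the first enzyme of haem synthesis, had 12035 in KI, 3173 in KO and 4851 in WT cells (3.79-fold higher in KI), and 13175 in untreated KI and 2438 in untreated KO. Slc48a1, a haem transporter, was 2.63-fold higher (759.8 in KI and 289 in KO), and Blvra, which reduces biliverdin, 2.80-fold higher (477 in KI and 171 in KO). Alas1 and Slc48a1 are not members of the list of haem and iron handling, which had 1 higher and 0 lower of 11. Slc27a1, a fatty acid transporter, had 767 in KI, 137 in KO and 234 in WT cells (5.59-fold higher), while its untreated signals were 1739 in KI and 1491 in KO cells. Apoc2, an activator of Lpl, was 2.72-fold lower (109 in KI and 295 in KO). Lipid genes had 2 higher and 1 lower of 21 and a median of 0.07. Sod2, the mitochondrial superoxide dismutase, had 2874 in KI, 1261 in KO and 5593 in WT cells (2.28-fold higher in KI), whereas Sod3, the extracellular form, had 310.2 in KI, 885 in KO and 709 in WT cells (2.85-fold lower). Gstt1, a glutathione transferase, was 2.45-fold lower (119 in KI and 292 in KO). Among 23 antioxidant genes 1 was higher and 2 were lower. In the list of ER chaperones, Ddit3 and Pdia4, a disulfide isomerase (318 in KI and 136 in KO), were the 2 higher of 18, with 0 lower, and the median was 0.02. Beside these lists, 1.64% of all counted genes were higher and 3.11% lower.

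The remaining leaders among the genes higher in KI were of mixed function. Lmo4, a LIM-domain cofactor, had 5111 in KI, 2005 in KO and 5634 in WT cells (2.55-fold higher). Fam20c, a secretory pathway kinase, had 1983 in KI, 580 in KO and 1622 in WT cells (3.42-fold higher). Gtf2f2, a subunit of the general transcription factor TFIIF, had 945 in KI, 155 in KO and 349.5 in WT cells (6.11-fold higher) and nearly the same gap in untreated cells (1008 in KI and 197 in KO cells). Pcp2, Snrpd3, a spliceosomal core protein, H2-M2, a nonclassical class I gene, and Prmt1, an arginine methyltransferase, were 3.56-fold, 3.30-fold, 3.02-fold and 2.54-fold higher, from KO signals of 172, 161, 187 and 503. Ptpn1, a phosphatase that acts on JAK kinases, had 3715 in KI and 1826 in KO. Bach1, a repressor of haem oxygenase, had 1670 in KI and 683 in KO. Itgax, the CD11c integrin subunit, had 3141 in KI and 1526 in KO. Glb1, the lysosomal β-galactosidase, had 750.2 in KI and 346 in KO. All 4 were at least 2-fold higher in KI, with signals above the floor on both arrays. Slc1a4, a neutral amino acid transporter (259 in KI and 65.4 in KO), Idh2, a mitochondrial isocitrate dehydrogenase (218 in KI and 35 in KO), and Tk1, thymidine kinase (237 in KI and 93.0 in KO), were past 2-fold with KO signals under the floor.

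The largest deficit in KI was Ifi202b, an interferon-inducible p200 protein. Its signal was 1.0 on the KI array and 3726 on the KO array, against 3719 in WT cells, so that it was at least 37.9-fold lower in KI. The untreated signals were 7.1 in KI and 432 in KO cells. Expression of this gene is known to vary between inbred mouse strains, and the labels give 1 strain for all samples. Its relative Ifi204 had 6638 in KI and 6535 in KO. Of 17 counted type I interferon genes, Ifi202b alone was 2-fold apart and the median was -0.01. The share lower among all counted genes was 3.11%.

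Ccr7 and Cytip, genes of maturing dendritic cells, and the chemokine gene Ccl8 were lower in KI, with WT nearer to KI than to KO. Ccr7, the chemokine receptor that leads dendritic cells to lymph nodes, had 335 in KI, 1897 in KO and 436 in WT cells (5.66-fold lower in KI). Cytip, a cytohesin-binding protein of maturing dendritic cells, had 1679 in KI, 7157 in KO and 2370.1 in WT cells (4.26-fold lower), while its untreated signals were 1566 in KI and 1674 in KO cells. Car2, a carbonic anhydrase, had 1758 in KI, 5446 in KO and 1239.9 in WT cells (3.10-fold lower). Xcr1, the receptor of a dendritic cell subset, had 312 in KI, 775 in KO and 250.4 in WT cells (2.48-fold lower). Ccl8, a monocyte chemokine, had 2547 in KI, 6152 in KO and 2224 in WT cells (2.41-fold lower), and Ccl22, a chemokine for T cells, 6199 in KI, 11071 in KO and 3049 in WT cells (-0.84). Fscn1, which bundles actin in mature dendritic cells, had 1913 in KI, 3079 in KO and 1318 in WT cells (-0.69). In the chemokine receptor list Ccr7, Ccr1 (793 in KI and 1757 in KO) and Cx3cr1 (158 in KI and 328 in KO) were the 3 lower of 10, with 0 higher. Among all counted genes 3.11% were lower and 1.64% higher. Ccr1 came within 2-fold under 1 alternative and Cx3cr1 under 4. The list's median was -0.35, against -0.06 for all genes, and its distance from that of all genes ran from -0.32 to 0 over the settings. In the costimulation list Cd24a (268 in KI and 582 in KO) and Ccr7 were the 2 lower of 13 and Itgax the 1 higher. Of 11 CC chemokines Ccl8 alone was 2-fold apart, and 0 of 8 CXC chemokines were.

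For other genes lower in KI the WT signal lay near KI for some and near KO for others. Near KI were Zfp36l1, which promotes mRNA decay (287 in KI, 831 in KO and 394 in WT cells), Ramp3, a receptor activity-modifying protein (199.5 in KI, 535 in KO and 163 in WT cells), and Ddt, a relative of the cytokine MIF (517 in KI, 1383 in KO and 622 in WT cells). S100a4, a calcium-binding protein, and Phf7 also lay nearer to KI, with 1344 in KI, 3424 in KO and 1905 in WT cells for S100a4 and 266 in KI, 750.3 in KO and 366 in WT cells for Phf7. Near KO was Sf3b1, a splicing factor, with 457 in KI, 1731 in KO and 1545 in WT cells (3.79-fold lower in KI), whose second bright probe set differed by -0.32. Mypop, a transcriptional repressor, had 492 in KI, 1567 in KO and 1513 in WT cells, and Gdap10 531 in KI, 1922 in KO and 1442 in WT cells. Cryl1, a crystallin-like dehydrogenase, had 349.9 in KI, 1002 in KO and 860.2 in WT cells, but its second probe set differed by 0.51, the other way, and the mean over both was -0.51. H1f2, a linker histone, had 281 in KI, 787 in KO and 817 in WT cells. Regulators of cell death were also among the genes lower in KI. Cflar, an inhibitor of caspase 8 activation, had 367 in KI, 886 in KO and 791 in WT cells (2.41-fold lower in KI), and Bcl2l11, the death-promoting protein BIM, 327 in KI, 765 in KO and 306 in WT cells (2.34-fold lower). These were the 2 lower of 16 apoptosis regulators, with 0 higher, and the list's median was -0.18. Among all counted genes 3.11% were lower. Stat4, a signal transducer of interleukin 12, was 3.22-fold lower (118 in KI and 381 in KO), Vegfa, the vascular growth factor, 2.12-fold lower (228 in KI and 485 in KO), Tgfbi, a matrix protein, 2.35-fold lower (199 in KI and 467 in KO), and Itgam, the CD11b integrin subunit, 2.08-fold lower (349 in KI and 728 in KO). Mxd1, an antagonist of MYC (133 in KI and 313 in KO), and Mki67, a proliferation marker (83.3 in KI and 223 in KO), were lower at low signals. Actb, by a probe set that shares probes with a gene family, had 4747 in KI and 9881 in KO, while the 3′ actin control had 31207 and 29088.

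Genes that responded in WT cells were set beside all counted genes, with no test of the difference. Of 185 counted genes that were induced at least 4-fold in WT cells, 10 (5.41%) were at least 2-fold higher in KI than in KO and 8 (4.32%) lower, with a median of -0.01. The shares among all counted genes were 1.64% and 3.11%, and the share of all genes 2-fold apart also varied with signal, as given above. Of 61 genes reduced at least 4-fold in WT, 4 (6.56%) were higher and 6 (9.84%) lower. Besides the TNF family, colony-stimulating factors and CXC chemokines, there was no gene 2-fold apart among 11 interferon-inducible GTPases, 12 class I presentation genes, 12 class II genes, 16 NF-κB subunits and inhibitors, 6 NADPH oxidase subunits, 29 proteasome subunits, 31 oxidative phosphorylation subunits, 15 ribosomal proteins, 11 complement genes, 10 coagulation genes, 11 cholesterol genes, 12 phosphatase and stress feedback genes or 5 Fc receptors. With 4.74% of all counted genes apart, a count of 0 in lists of these sizes lies near the background. Medians of these lists ran from -0.32 for complement to 0.42 for coagulation and fibrinolysis.

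**Figure D3:**
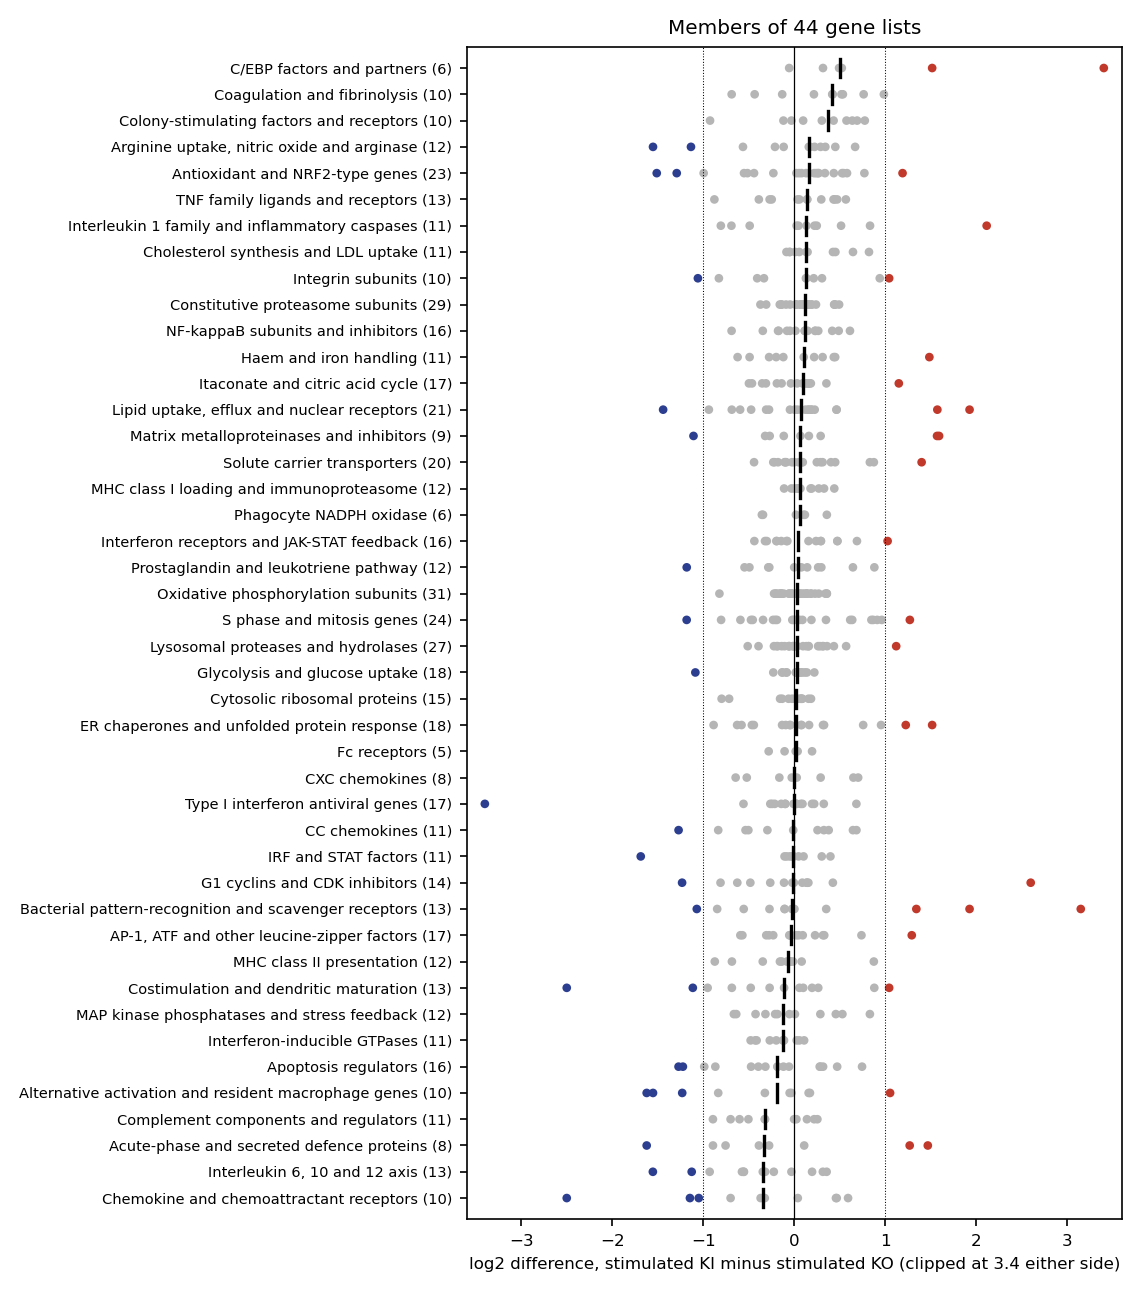
Log2 difference, stimulated KI minus stimulated KO, of each counted member of 44 gene lists, with the number of counted members in brackets and a black bar at each list's median. Red and blue points are at least 1 above and below 0 (dotted lines), and values past 3.4 are drawn there (Cebpb at 5.91 and Ifi202b at -5.25). Most lists centre near 0 and hold at most 3 members past either line.

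Untreated KI and KO cells, measured on a separate pair of arrays, differed in more genes. Of 5984 genes counted there, 204 (3.41%) were at least 2-fold higher in KI and 385 (6.43%) lower, or 9.84% in either direction. In 5478 genes counted in both states, 31 were higher in KI in both and 50 lower in both. The 31 were 36.5% of the 85 genes higher after stimulation and 16.3% of the 190 higher before it, and 3.47% of all genes were higher before it. The 50 were 30.5% of the 164 genes lower after stimulation and 14.6% of the 343 lower before it, where 6.26% of all genes were lower. Another 3 genes were higher after and lower before stimulation, and 5 the reverse. The log2 differences in both states had a Pearson's r of 0.39 and a Spearman's rho of 0.35 across genes, which share genotype and probe sets but no array. Genes are not independent replicates.

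For Ccr2, Plac8, Hipk2 and Prkcb the difference was large before stimulation and under 2-fold after it. Ccr2, the monocyte chemokine receptor, had 649 in untreated KI and 5625 in untreated KO cells, then 665 in KI and 860.3 in KO after stimulation. Plac8 had 231 in untreated KI and 2109 in untreated KO, then 2025 in KI and 3967 in KO. Hipk2, a kinase, had 699.6 in untreated KI and 51.5 in untreated KO, then 509 in KI and 624 in KO, and Prkcb, a protein kinase C, 4650.1 in untreated KI and 893 in untreated KO, then 623 in KI and 656 in KO. Among genes counted in both states whose higher stimulated signal reached 532, the difference between states toward KI was largest for Ccr2 (2.74 on the log2 scale). Marco, under the floor in untreated KI and KO cells, had 3.15 and was outside this ranking. A shift toward KI after stimulation was also seen for Ifnar2, an interferon receptor subunit (difference between states 2.35 on the log2 scale), Cxcl1, a neutrophil chemokine (117 in untreated KI and 288 in untreated KO, and 618 in KI and 380.2 in KO after stimulation), Bcl3, an NF-κB cofactor (1.99), and Icam1, an adhesion molecule (1.83), which reached 8228 in KI and 4477 in KO. Below that signal Arg1 (2.69) and Tk1 (2.38) also shifted toward KI. Among genes that reached it, the opposite shift was largest for Hipk2 (-3.13), Ifi202b (-3.11) and Prkcb (-2.46). Over 5478 genes, 290 (5.29%) had a difference between states of at least 1 toward KI and 228 (4.16%) toward KO, or 9.46% in either direction. S phase and mitosis genes had a median of -0.90 in untreated cells, where 11 of 30 were lower in KI and 0 higher, and of 0.03 after stimulation, where 1 of 24 was lower and 1 higher. Of all genes counted, 6.43% were lower and 3.41% higher in untreated cells, and 3.11% and 1.64% after stimulation.

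**Figure D4:**
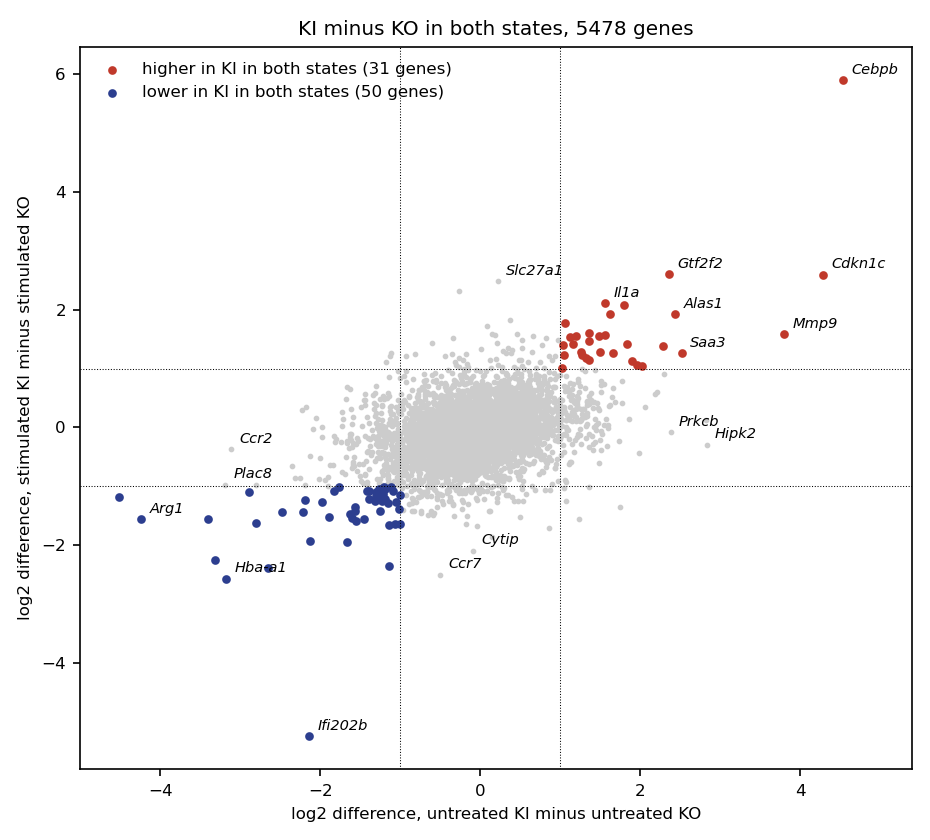
Log2 difference KI minus KO in stimulated cells (vertical) against that in untreated cells (horizontal), 1 point for each of 5478 genes counted in both states, with dotted lines at 1 and -1. The 31 red and 50 blue genes are at least 2-fold apart in the same direction in both states, while Slc27a1, Ccr7 and Cytip are past 2-fold after stimulation and not before, and Ccr2, Hipk2 and Prkcb before and not after.

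Markers of macrophages and of other cells were set beside these differences. The 8 macrophage markers were all counted, with a summed signal of 43226 in KI and 39732 in KO, and a median difference of -0.05. Adgre1, the F4/80 antigen, had 5451 in KI and 6126 in KO, Cd68 12248 in KI and 9609.6 in KO, and Lyz2 14548 in KI and 13501 in KO. Itgam was the 1 marker of the 8 at least 2-fold apart. Summed signals of B cell, erythroid, dendritic, neutrophil, T or NK and mast cell markers were lower in KI. B cell markers summed to 2153 in KI and 3017 in KO over 9 on the array, with 6 of 7 counted members below 0 and 2 at least 2-fold lower, Cd79a (302 in KI and 644 in KO) and Ms4a1 (125 in KI and 297 in KO). Igkv6-23, an immunoglobulin light chain segment, had 391 in KI, 1148 in KO and 1274 in WT cells. The Igkv6-23 probe set shares probes with a gene family. Erythroid and platelet markers summed to 241 in KI and 1047 in KO, with the haemoglobin gene Hba-a1 as the largest member (141 in KI, 835 in KO and 1207 in WT cells), which was 5.93-fold lower in KI. Dendritic cell markers summed to 12485 in KI and 18559 in KO, with Ccl22 as the largest member, and 1 of 6 counted was higher and 1 lower. Beside these marker counts, 1.64% of all counted genes were higher and 3.11% lower. Neutrophil markers summed to 1730.4 in KI and 2077 in KO, with Elane lower (70.0 in KI and 219 in KO). The neutrophil marker Csf3r differed by -0.03 by its chosen probe set, but its 2 other probe sets were higher in KI (0.91 and 1.40). T or NK cell markers summed to 740.3 in KI and 939 in KO, with Gzmb lower (118 in KI and 275 in KO). Mast cell markers summed to 1296 in KI and 1407 in KO, with Tpsb2 lower by its chosen probe set (291 in KI and 653 in KO). However, 2 of 3 counted mast cell markers were above 0, and their median was 0.17. Monocyte markers summed to 1889 in KI and 1947 in KO and mesothelial or fibroblast markers to 2956 in KI and 2735 in KO. The 4 eosinophil markers on the array were all under the floor in both. Of 5 markers of resident peritoneal macrophages 2 were counted, Cd93 (241 in KI and 116 in KO) and Gata6 (71.5 in KI and 102 in KO). In RNA from a mixed preparation, fewer cells of a type and less RNA per cell cannot be told apart. The part of these cells in the differences of Ccr7, Il12b and the other genes lower in KI was not tested.

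**Figure D5:**
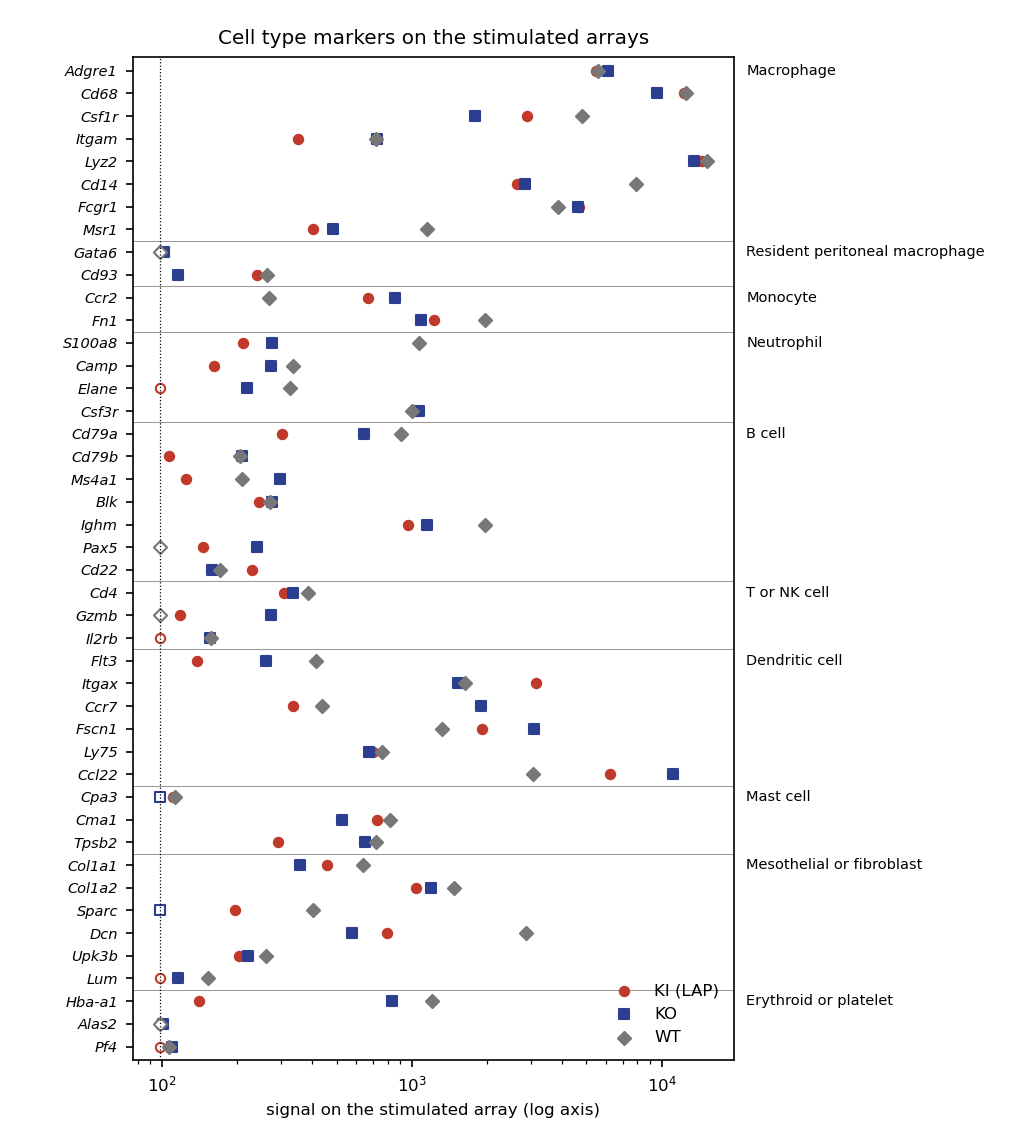
Signals of counted cell type markers on the stimulated KI, KO and WT arrays (log axis), grouped by cell type from top to bottom. Each symbol is 1 array and open symbols are signals under the floor of 98.2, drawn on it (dotted line). The macrophage markers Adgre1, Cd68, Lyz2 and Fcgr1 lie close in KI and KO, while the macrophage marker Itgam is lower in KI and Csf1r higher. Cd79a, Ms4a1, Ccr7 and Hba-a1 are lower in KI, and the dendritic cell marker Itgax is higher.

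Of 4 transcripts that follow the sex of the animal, Eif2s3y was past 2-fold in both states and Xist in untreated cells. Eif2s3y, a Y-linked gene, had 16.0 in KI and 267 in KO after stimulation, and 3.4 in untreated KI and 456 in untreated KO, by a probe set that shares probes with a gene family. Xist, made from the inactive X chromosome, had 356 in KI and 241 in KO after stimulation, and 473 in untreated KI and 104 in untreated KO. The Y-linked Kdm5d and Uty were under the floor in KI and KO in both states. The WT signals of Xist were 641 stimulated and 127 untreated. The part of animal sex or strain in any other difference was not tested.

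Among 80 named genes that were at least 2-fold apart, 47 remained so under every alternative recomputed for them. Of the others, Vegfa, Cx3cr1 and Il6ra came within 2-fold under 4 alternatives, Itgam, Stab1 and Tpsb2 under 3, and Cd24a, Cd79a, Gzmb and Ms4a1 under 2. Another 23 came within 2-fold under 1, among them Cd36, Clec4e, Slpi, Arg1, Chil3, Stat4 and Ptpn1. A gene under the raised floor on both arrays had no value there and was not counted as within 2-fold. Elane, Idh2, Mki67, Mmp11 and Tk1, which are among the 47, were such genes. The 3-fold and bright-gene alternatives were not applied to single genes. Of the 80 genes, 0 turned their direction. The 91 genes followed include some under 2-fold apart, and of these Cebpd went from -0.06 to 0.15 under median centring.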

How the data were processed

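Total RNA (6 µg) was isolated with Trizol and turned into biotinylated cRNA, per the labels' protocols. The authors deposited a linear signal intensity for each of 12488 probe sets, and the submitters' processing notes name MAS5. No version or scaling target was stated. The deposited intensities had trimmed means of 499.5 to 499.9 after the lowest and highest 2% were left out, so the arrays were already on 1 scale. They were rescaled to the mean of these, given a floor at the 40th percentile (98.2) and taken to log2 in Python 3.11.15 with pandas 2.3.3. A fold near the floor is understated.

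Gene names came from the platform annotation (10833 probe sets with 1 symbol, 396 with several, 1193 with none), checked against RefSeq genes of GRCm38.p6 (10817 matched, 0 symbols changed). A gene was represented by the probe set whose mean log2 signal over the 6 arrays was highest. Named genes are a fixed set of 17 inducible and C/EBP genes, the 20 largest differences in each direction whose higher signal reached the 75th percentile (532), the 8 largest differences between states in each direction under the same signal limit, list members at least 2-fold apart or bright, and cell markers. Differences between states were ranked only among genes counted in both states. The genes, 44 lists and 11 marker lists were chosen with earlier results of these data known. Ifi204 and the sex-linked genes were added after their values were seen. With 1 array a group no test or replicate error could be computed. The alternatives were another floor, a pseudocount of 32, median centring, quantile normalization, the mean over probe sets, other filters and 3-fold. The code was tested on simulated data.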

Additional observations from a re-analysis of the deposited data

Results flagged for a closer look

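Tk1, thymidine kinase, differed in opposite directions before and after stimulation. After stimulation its signal was 237 in KI and 93.0 in KO, which is under the floor, with 501 in WT cells, and the log2 difference, KI minus KO, was 1.27. In untreated cells it was 302 in KI and 652 in KO, with 125 in WT cells, and the log2 difference was -1.11. With 1 array in each genotype and state, the difference between the states was not tested.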

How the results depend on the processing

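No paired analysis was possible because each genotype and state had 1 array. For the same reason no replicate could be left out. Against 95 genes higher and 180 lower in stimulated KI than in KO, a floor at the 20th percentile gave 331 and 574, a floor at the 60th percentile 41 and 48, a pseudocount in place of the floor 161 and 292, a difference of at least 3-fold 17 and 21, and bright genes only 38 and 44. Median centring gave 185 higher. Against 204 genes higher and 385 lower in untreated KI, the lower floor gave 430 and 848, the higher floor 105 and 155, and median centring 354 and 206, while quantile normalization gave 242 lower. Of 44 lists, 34 had a median above that of all genes, which became 22 with genes above the floor on any of the arrays and 17 with no filter. Over 719 recomputed values of 91 genes, 33 moved by more than 1.5-fold, and 0 reversed among genes at least 2-fold apart. Of 352 recomputed list medians, 0 moved as much. Counts near the floor therefore depend on where it is set, and a split into higher and lower genes on the scaling. The causes were not tested. Signals under 98.2 have no order.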
